A study of Mus musculus with 14 samples.

Results

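The Vmn2r genes encode the type 2 vomeronasal receptors. The members described here are the protein-coding RefSeq genes of mm10 whose symbol is Vmn2r followed by a number, without the entries marked as pseudogenes. The rule found 123 of 21896 protein-coding genes, and 122 of these lie on an assembled chromosome and could be measured. Vmn2r122 has a position only on an unlocalized sequence of chromosome 4 and was not measured. A member was given every region that overlapped the gene or the 1000 bp on either side of it.

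Type 2 vomeronasal receptors are G protein-coupled receptors of family C with a large extracellular domain. They act in sensory neurons of the basal layer of the vomeronasal organ, where they detect peptide and protein pheromones such as exocrine gland-secreting peptides and major urinary proteins and signal through the G protein subunit Gnao1 and the channel Trpc2. A vomeronasal neuron uses few of these receptors, and the genes lie in tandem arrays whose copies can be very alike. H3K9me3 is the histone mark of constitutive heterochromatin and H3K27ac that of active promoters and enhancers.

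All values come from chromatin immunoprecipitation and sequencing (ChIP-seq) in E14 mouse embryonic stem cells grown on gelatin in 2i and LIF. Cells received 1 µM doxorubicin, a topoisomerase II poison that causes DNA breaks, or the DMSO vehicle for 6 h, then spent 6 h without drug and were harvested at 12 h. Both marks were measured in both treatments. Tagged p53 was precipitated with an HA antibody, the same antibody was used on cells lacking the tag, and input chromatin came from cells given doxorubicin. The labels of the HA libraries do not give their treatment. Each of these 7 groups has 1 peak list called on 2 pooled libraries, so no value below has a replicate check or a p-value, and a difference between the treatments is a difference between these lists. Intervals are 95% and cover counting error only.

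After removal of duplicates the lists rested on 14402634 to 49588950 fragments, with 15992125 for H3K9me3 in vehicle and 14402634 in doxorubicin. For H3K9me3, vehicle had 60836 regions and doxorubicin 78890. A pileup is the number of fragments over a summit and is given as FPM, fragments per 1000000 fragments of the list. Among marker genes of cell types, 10 of 10 for embryonic stem cells, such as Pou5f1 and Nanog, had an H3K27ac region in both treatments. Fibroblast markers had one at 2 of 6 genes in vehicle and 4 of 6 in doxorubicin, and endoderm markers at 3 of 4 in each treatment. All 6 genes listed as vomeronasal neuron markers had one too. These include Omp and Trpc2 as well as Gnai2 and Ncam1, which are used in many cell types. Of all protein-coding genes 64.8% had an H3K27ac region in vehicle and 70.5% in doxorubicin, so these counts do not tell the cell types apart. H3K27ac regions within 1000 bp of a gene do not measure its expression.

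The first letters of these genes show how alike the copies can be. The 300 bases around the annotated start of each gene came from RefSeq for the GRCm38.p6 assembly, the one behind mm10, and 116 of the 122 members matched an entry. Those of Vmn2r44 and Vmn2r33 are shown because these genes had the highest H3K9me3 pileups among members called in doxorubicin only, and that of Vmn2r1 because it belongs to the co-expressed family. Vmn2r22 and Vmn2r29 are shown because H3K9me3 overlapped these 300 bases, at Vmn2r22 in vehicle only and upstream of the gene. Vmn2r129 had such an overlap too, in vehicle only, and is not shown. The sequences shown lie at chr7:8383189-8383488, chr7:7566737-7567036, chr3:64081392-64081691, chr6:123650586-123650885 and chr7:7278240-7278539, in that order, on the minus strand except for Vmn2r1. Capitals mark CG dinucleotides, the sites of DNA methylation.
Vmn2r44: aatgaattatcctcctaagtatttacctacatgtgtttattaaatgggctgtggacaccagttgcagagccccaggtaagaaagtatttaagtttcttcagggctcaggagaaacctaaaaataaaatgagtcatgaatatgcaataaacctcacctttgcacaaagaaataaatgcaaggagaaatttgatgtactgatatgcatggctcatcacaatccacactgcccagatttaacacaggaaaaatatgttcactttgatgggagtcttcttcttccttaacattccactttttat
Vmn2r33: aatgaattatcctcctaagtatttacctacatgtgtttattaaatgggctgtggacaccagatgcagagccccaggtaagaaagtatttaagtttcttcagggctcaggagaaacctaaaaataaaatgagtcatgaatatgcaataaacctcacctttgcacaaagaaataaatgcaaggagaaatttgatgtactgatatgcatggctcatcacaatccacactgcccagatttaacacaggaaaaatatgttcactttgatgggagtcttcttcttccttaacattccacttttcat
Vmn2r1: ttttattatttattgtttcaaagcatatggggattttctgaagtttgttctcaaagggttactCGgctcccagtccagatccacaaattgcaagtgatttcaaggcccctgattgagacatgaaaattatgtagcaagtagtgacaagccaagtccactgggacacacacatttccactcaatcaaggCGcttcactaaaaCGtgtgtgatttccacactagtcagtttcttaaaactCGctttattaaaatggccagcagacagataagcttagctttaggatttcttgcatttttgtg
Vmn2r22: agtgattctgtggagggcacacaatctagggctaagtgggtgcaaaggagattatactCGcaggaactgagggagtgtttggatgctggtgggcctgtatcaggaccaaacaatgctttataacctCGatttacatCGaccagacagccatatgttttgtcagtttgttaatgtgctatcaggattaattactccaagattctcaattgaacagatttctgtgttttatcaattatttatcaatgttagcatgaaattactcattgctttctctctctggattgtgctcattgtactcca
Vmn2r29: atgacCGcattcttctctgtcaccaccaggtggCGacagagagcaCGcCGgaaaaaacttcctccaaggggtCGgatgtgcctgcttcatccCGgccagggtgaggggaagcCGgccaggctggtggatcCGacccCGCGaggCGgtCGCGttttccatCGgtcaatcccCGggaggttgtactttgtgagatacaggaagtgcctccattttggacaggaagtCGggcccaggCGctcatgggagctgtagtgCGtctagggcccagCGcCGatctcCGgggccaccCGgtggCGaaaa

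The starts of Vmn2r33 and Vmn2r44 hold 0 CG dinucleotides and are 99.3% identical to each other. That of Vmn2r1 holds 4, that of Vmn2r22 holds 3, and that of Vmn2r29 holds 23 with a GC content of 62.3%. Across the 116 members the median was 1 CG dinucleotide, against 13 in the 17491 protein-coding gene starts of the same length. None was found in 27.6% of members and 5.20% of all starts, and the median GC content was 38.0% and 56.3%. Vmn2r29 had the highest count of the family.

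H3K9me3 was present at 53 members in vehicle (43.4%, Wilson interval 35.0 to 52.3) and at 61 in doxorubicin (50.0%, 41.3 to 58.7). The same call was made at 25.4% of all protein-coding genes in vehicle and 29.1% in doxorubicin. Since longer genes have more room for a region, the share was also taken over the 13162 genes whose length lies within the range of the members, 8.397 to 142.676 kb, where it was 29.0% and 33.4%. H3K27ac was present at 11 members in vehicle (9.02%) and 12 in doxorubicin (9.84%), against 64.8% and 70.5% of all genes, and in the length range 74.9% and 81.0%. A p53 region lay at 5 members (4.10%), against 17.2% of all genes and 19.3% in the length range. The untagged list had a region at 4 members (3.28%, background 3.92% of all genes and 4.15% in the length range) and the input at 2 (1.64%, background 1.53% and 1.60%).

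**Figure D1:**
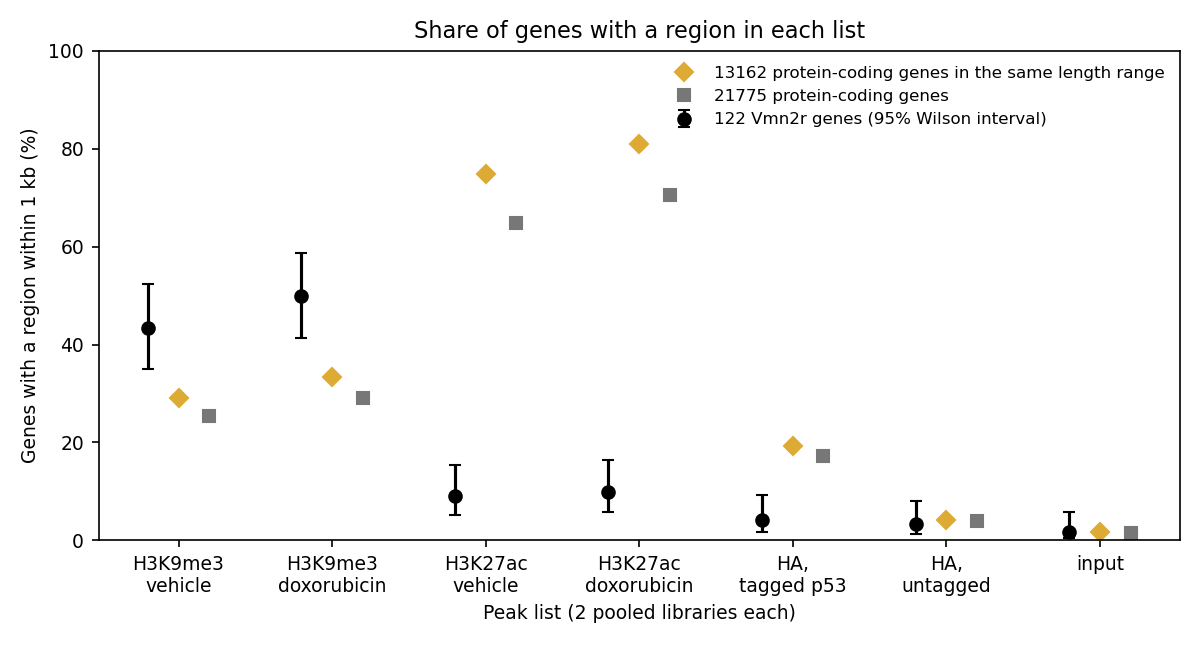
Share of genes with a region in the gene or within 1 kb of it, in percent (vertical axis), in each of the 7 peak lists (horizontal axis). Circles are the 122 Vmn2r genes with 95% Wilson intervals, diamonds the 13162 protein-coding genes of the same length range and squares all 21775. The Vmn2r circles lie above both backgrounds in the H3K9me3 lists and below them in the H3K27ac and p53 lists.

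By treatment, 49 members had H3K9me3 in both lists (40.2%, against 23.3% of all genes and 26.3% in the length range) and 57 in neither (46.7%, against 68.9% and 63.9%). It was present in doxorubicin only at 12 members (9.84%, interval 5.72 to 16.4), where the background was 5.75% of all genes and 7.10% in the length range. In vehicle only it was present at 4 (3.28%), with a background of 2.03% and 2.76%. The interval of the doxorubicin-only share contains both background shares. Members with the mark in both lists were longer, with a median of 33.3 kb, than those in doxorubicin only (16.6 kb), in vehicle only (18.4 kb) or in neither (18.8 kb).

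Split at 30 kb, the members were above other genes in share in both classes of length. Of 40 members of 30 kb or more, 29 had H3K9me3 in vehicle and 31 in doxorubicin (72.5% and 77.5%), and the background was 51.0% and 55.8%. Of 82 shorter members, 24 and 30 had it (29.3% and 36.6%, background 11.7% and 14.9%). The background of shorter genes includes genes below 8.397 kb, the shortest member, such as Olfr and Vmn1r genes with medians of 0.951 and 0.924 kb. That of longer genes reaches 1000 kb, beyond the longest member of 142.676 kb. The classes are thus not fully matched for length.

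The amount of H3K9me3 over the family was summed over the joined windows of the members, 3437 kb in all. The vehicle list had 112 regions covering 112 kb there (3.27% of the sequence) and the doxorubicin list 146 regions covering 129 kb (3.76%). Over all protein-coding genes the share covered was 1.58% and 1.83%. The ratio of doxorubicin to vehicle was 1.30 for the number of regions and 1.15 for the covered length, beside 1.24 and 1.16 over all protein-coding genes and 1.30 and 1.18 over the whole lists. The family thus had a higher share covered than genes at large in both treatments, while its ratio between treatments was close to theirs. Other families were covered to different extents, the Vmn1r genes to 1.14% and 1.58%, the Olfr genes to 0.773% and 1.18%, and the Zfp genes to 6.58% and 6.34%.

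Coverage was uneven among members. In vehicle the 4 members with most held 36.2% of the summed length and in doxorubicin 30.8%. Vmn2r35, on chromosome 7, had 9 regions covering 15.4 kb in vehicle, 43.2% of its window, and 11 covering 13.9 kb in doxorubicin. Its highest pileup was 3.56 FPM in vehicle (exact Poisson interval 2.70 to 4.62) and 5.28 in doxorubicin (4.16 to 6.60), so it had less covered length and a higher summit after the drug, with intervals that overlap.

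Vmn2r60, in another array of chromosome 7, was covered over 12.0 kb in vehicle and 12.5 kb in doxorubicin. Its longest site, chr7:42168954-42176733, had a summit of 74 fragments in vehicle, or 4.63 FPM (3.63 to 5.81), and 108 in doxorubicin, or 7.50 FPM (6.15 to 9.05). These intervals do not overlap. Among the 49 members with the mark in both treatments the intervals of the highest summit lay apart at 2, Vmn2r60 and Vmn2r43. Both were higher in doxorubicin, and 0 members lay apart in the other direction. The same count over all genes is not given here. These intervals are not adjusted for the median ratio of all sites in both lists, which was 1.27. Vmn2r43, named here after its values were seen, had 0.875 FPM in vehicle (0.479 to 1.47) and 2.29 in doxorubicin (1.58 to 3.22) over the same 0.480 kb.

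The rest of the members with most H3K9me3 had similar covered lengths in both lists. Vmn2r38 had 7.10 kb in vehicle and 6.53 kb in doxorubicin, Vmn2r1 6.97 and 7.41 kb, and Vmn2r79 5.83 and 5.67 kb. Vmn2r29 had 5.39 and 5.79 kb, Vmn2r91 5.12 and 6.06 kb, and Vmn2r97 4.93 and 5.96 kb. Vmn2r87 followed with 4.08 and 4.04 kb and Vmn2r22 with 3.63 and 2.75 kb. The 10 members lie in 7 arrays on 5 chromosomes, so high coverage was not a property of 1 array.

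**Figure D2:**
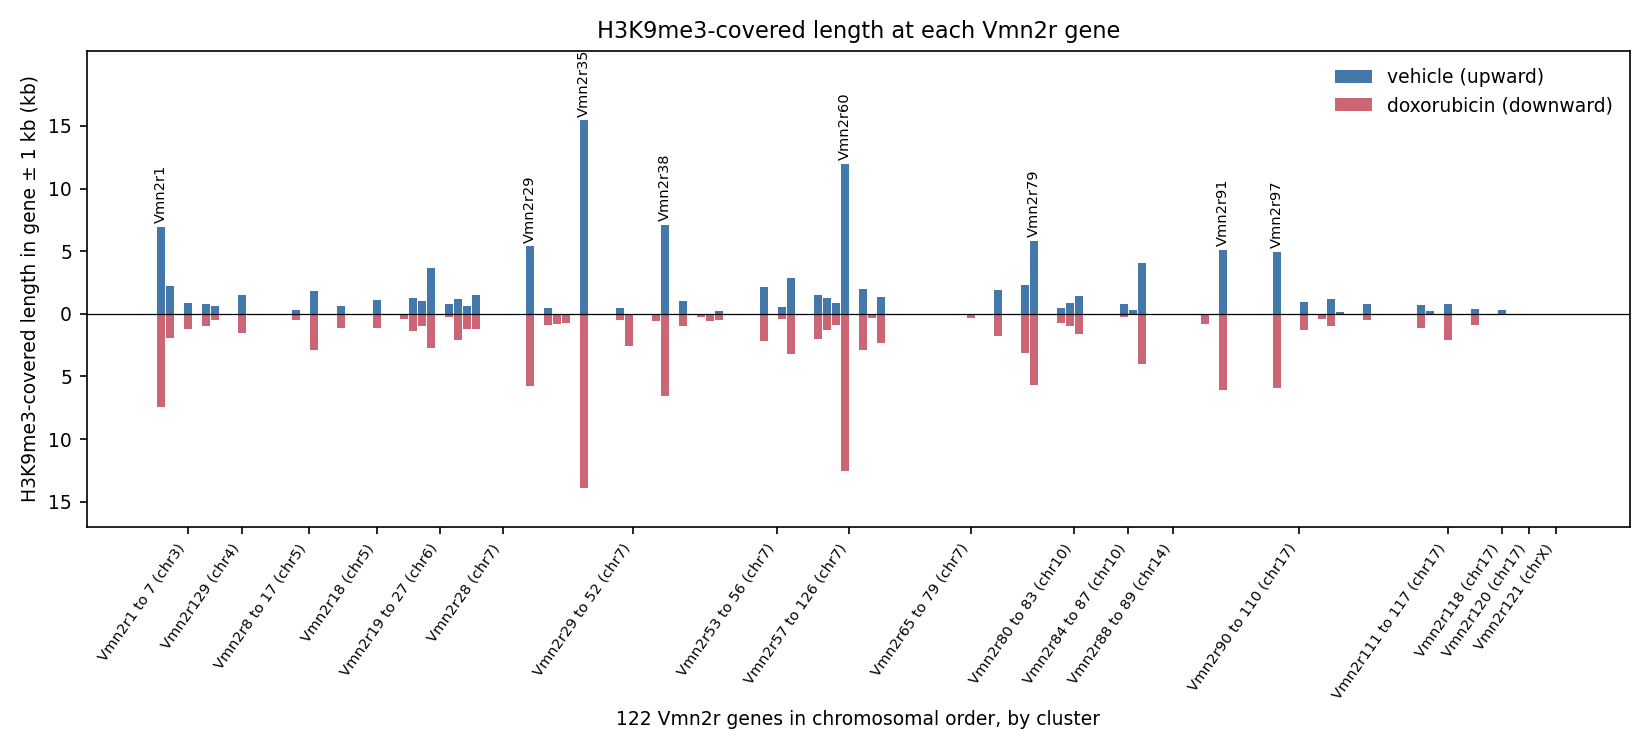
Length covered by H3K9me3 regions in each Vmn2r gene and 1 kb on either side, in kb (vertical axis), for the 122 members in chromosomal order, with labels under each cluster. Upward bars are vehicle and downward bars doxorubicin, and the 8 members with most in vehicle are named. Vmn2r35 with 15.4 kb and Vmn2r60 with 12.0 kb stand above all others, and many members show no bar in either direction.

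The highest pileup of the family belonged to Vmn2r29. The site chr7:7277460-7280817, which covers the start sequence printed above, had 369 fragments in vehicle (23.1 FPM, 20.8 to 25.6) and 353 in doxorubicin (24.5 FPM, 22.0 to 27.2). The same place was listed in the input with 1.03 FPM, in the untagged HA ChIP, and in H3K27ac with 0.823 FPM in vehicle and 1.12 in doxorubicin. The part of input or antibody background in the H3K9me3 value was not tested. Without this gene the family's ratios of doxorubicin to vehicle were 1.32 for the number of regions and 1.15 for the covered length.

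Regions of both lists that overlap were joined into sites so that the pileups could be compared. The members had 156 sites, of which 89 were in both lists, 49 in doxorubicin only and 18 in vehicle only. At the 89 shared sites the median log2 ratio of doxorubicin to vehicle was 0.47 (interquartile range 0.09 to 0.81), or 1.39 times. Of these, 75 of 89 were higher in doxorubicin, beside 37243 of the 47376 shared sites of the whole lists. At least 1.5 times higher were 38 of the 89 member sites (42.7%, Wilson interval 32.9 to 53.1), where the background over the 47376 sites was 28.4%. At least 1.5 times lower were 0 of 89, with a background of 2.81%.

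Much of this difference lies in the lists as a whole, whose shared sites had a median log2 ratio of 0.34 after scaling by depth. With the ratios taken relative to that median, those of the members had a median of 0.13, with 12 of 89 (13.5%) at least 1.5 times higher and 9 of 89 at least 1.5 times lower, beside 9.12% and 9.95% of all sites. Sites weak in vehicle had larger ratios in both sets. The vehicle pileup that sorts the sites is also the divisor of the ratio, so this trend is partly built in. Below 1 FPM in vehicle 60.0% of 40 member sites were at least 1.5 times higher in doxorubicin, and 38.5% of all sites. From 1 to 2 FPM the shares were 32.4% of 37 and 22.9%, and from 2 FPM 16.7% of 12 and 13.7%. Requiring a pileup of at least 1 FPM in both lists left 47 shared sites, with 27.7% of them at least 1.5 times higher and 22.3% of all sites.

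The measured members fall into 18 chromosomal clusters when neighbours up to 1000000 bp apart are joined. Of these, 12 have 2 or more members and hold 116, and 6 are single genes. Over the member windows the covered length was higher in doxorubicin in 10 of the 12 clusters, lower in 1 and zero in both treatments in 1, the pair Vmn2r88 and Vmn2r89 on chromosome 14. Over the whole spans, with the sequence between the members, it was higher in 7 of 12 clusters and lower in 5. The cluster of Vmn2r57 to Vmn2r126 differed in direction between these measures, with 18.8 kb in vehicle and 22.3 kb in doxorubicin in its member windows and 162 and 154 kb over its span. The whole doxorubicin list was also longer than the vehicle list, and with equal numbers of top regions from both lists 6 of 12 clusters were higher. Lower in doxorubicin over the member windows was the cluster of Vmn2r84 to Vmn2r87 on chromosome 10, with 5.16 kb in vehicle and 4.32 kb in doxorubicin.

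Among the 12 clusters of 2 or more members the densest coverage in vehicle was in Vmn2r84 to Vmn2r87, with 8.19% of the member windows in vehicle and 6.85% in doxorubicin. On chromosome 7, Vmn2r29 to Vmn2r52 had 5.30% and 6.10%, Vmn2r57 to Vmn2r126 had 5.28% and 6.25%, and Vmn2r53 to Vmn2r56 had 4.33% and 4.62%. Vmn2r65 to Vmn2r79, also on chromosome 7, had 3.10% and 3.41%. The clusters of chromosome 3 (Vmn2r1 to Vmn2r7) and chromosome 6 (Vmn2r19 to Vmn2r27) had 3.22% and 3.57%, and 2.87% and 2.97%. Lower values were found in Vmn2r90 to Vmn2r110 (1.88% and 2.31%), Vmn2r80 to Vmn2r83 (1.69% and 2.02%), Vmn2r111 to Vmn2r117 (1.44% and 2.76%) and Vmn2r8 to Vmn2r17 (1.38% and 2.22%). The same 7 of these 12 clusters had the highest shares in both treatments. Of the single genes, Vmn2r129 was covered to 14.1% and 14.9% and Vmn2r18 to 4.16% and 4.06%.

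Clusters also differed in how many members were marked. On chromosome 6, 7 of 9 members had H3K9me3 in both lists, and on chromosome 3, 5 of 7. In the largest chromosome 17 cluster, Vmn2r90 to Vmn2r110, 14 of 22 had it in neither, in Vmn2r65 to Vmn2r79 10 of 15, and in Vmn2r8 to Vmn2r17 7 of 10. Over the family 40.2% had it in both lists and 46.7% in neither, and among genes in the length range 26.3% and 63.9%. The counts in neither list for these clusters thus lay near the share of the length range. The number of regions went from 12 in vehicle to 20 in doxorubicin in Vmn2r90 to Vmn2r110, from 14 to 21 in Vmn2r57 to Vmn2r126, and from 20 to 36 in Vmn2r29 to Vmn2r52. It went from 13 to 11 in Vmn2r19 to Vmn2r27 and from 4 to 2 in Vmn2r84 to Vmn2r87, and was 5 in both treatments in Vmn2r80 to Vmn2r83. Of the single genes, Vmn2r129 on chromosome 4 and Vmn2r18 on chromosome 5 had the mark in both lists, with 1.47 and 1.55 kb and with 1.13 and 1.11 kb. Vmn2r118 had 0.287 kb in vehicle only, and Vmn2r28, Vmn2r120 and Vmn2r121 had none.

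**Figure D3:**
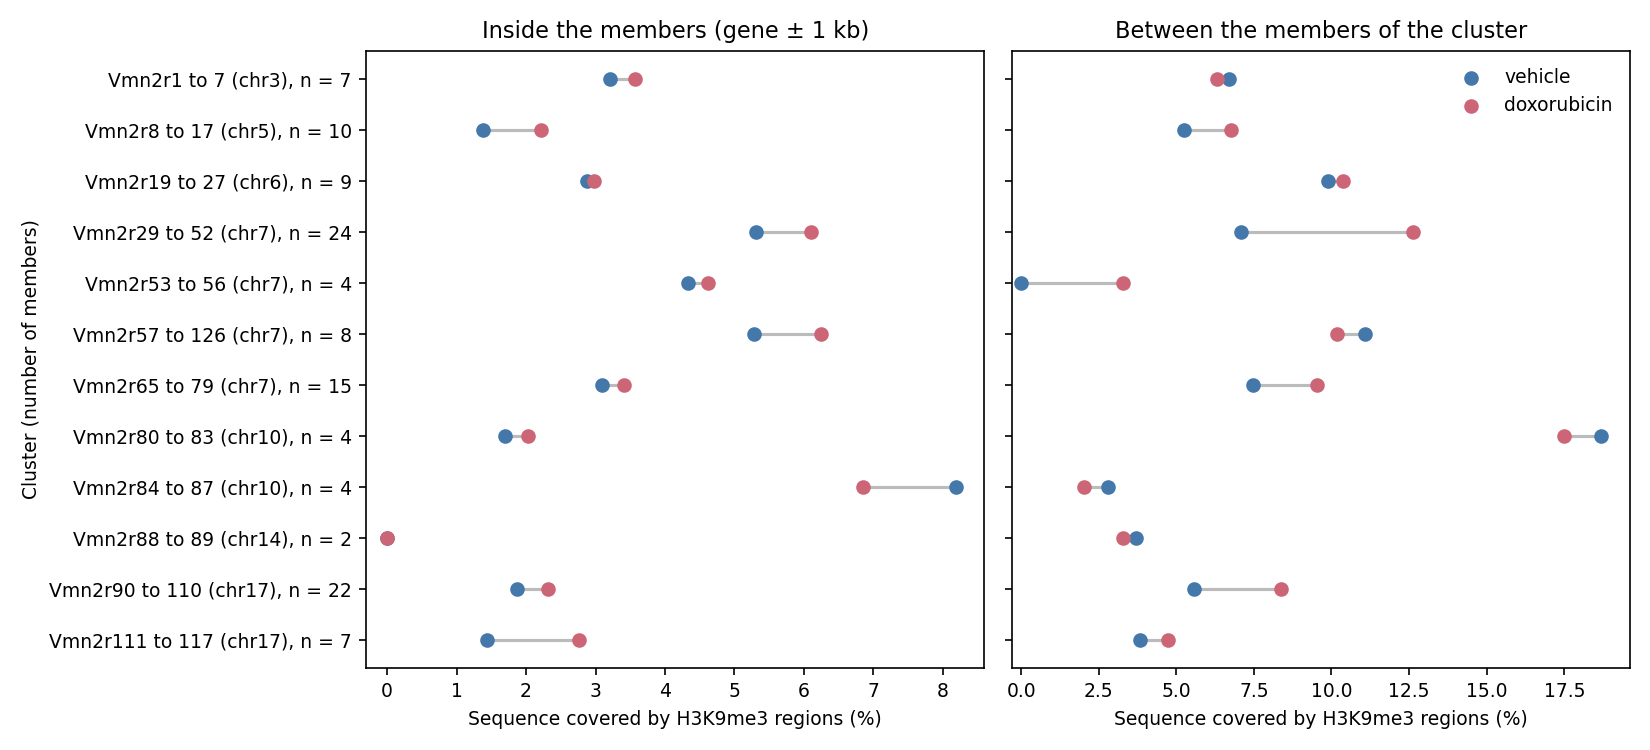
Share of sequence covered by H3K9me3 regions, in percent (horizontal axes), inside the members of each cluster of 2 or more (left) and between its members (right). Blue points are vehicle and red points doxorubicin, and each row is a cluster with its chromosome and number of members. The widest gap between members is that of Vmn2r29 to Vmn2r52, from 7.08% to 12.6%.

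The array of Vmn2r29 to Vmn2r52 had the highest ratio of doxorubicin to vehicle in covered length over the span, among the 12 clusters. It spans 2.96 Mb of chromosome 7 and holds 24 members, of which 7 had H3K9me3 in both lists, 6 in doxorubicin only and 11 in neither. Over the whole span, members and the sequence between them, regions covered 199.9 kb in vehicle and 337 kb in doxorubicin, a ratio of 1.69. Between the members the share covered was 7.08% in vehicle and 12.6% in doxorubicin, and inside them it was 5.30% and 6.10%, so most of the difference lay between the genes. The span held 157 sites in both lists, 239 in doxorubicin only and 22 in vehicle only. That is 10.9 doxorubicin-only sites for each vehicle-only site, where the whole lists had 2.85.

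For scale, the genome was divided into 868 tiles of 3 Mb, a measure added after the array's values had been seen. A covered length at least 1.5 times higher in doxorubicin was found in 3.92% of the tiles. A tile had a median of 24 doxorubicin-only and 9 vehicle-only sites, and the highest number of doxorubicin-only sites in a tile was 292. The ratio of the array ranged from 1.50 with equal numbers of top regions to 1.79 with regions within 1000 bp merged, and was 1.75 without regions that overlap the input or untagged lists.

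Sites shared by both lists over the array had a median log2 ratio of 0.66, and 58.6% of 157 were at least 1.5 times higher in doxorubicin (interval 50.8 to 66.0). Relative to the median of all shared sites these values were 0.32 and 30.6%, with 6.37% at least 1.5 times lower, beside 9.12% and 9.95% of all sites. The doxorubicin-only sites were weak and short, with a median pileup of 0.833 FPM and a median length of 394 bp, and 8 of the 239 overlapped an input or untagged region. All 4 members with an untagged or input region, Vmn2r29, Vmn2r31, Vmn2r32 and Vmn2r44, lie in this array. Without the array's members the family had 46 marked genes in vehicle and 48 in doxorubicin, and 39.7% of its shared sites were at least 1.5 times higher.

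**Figure D4:**
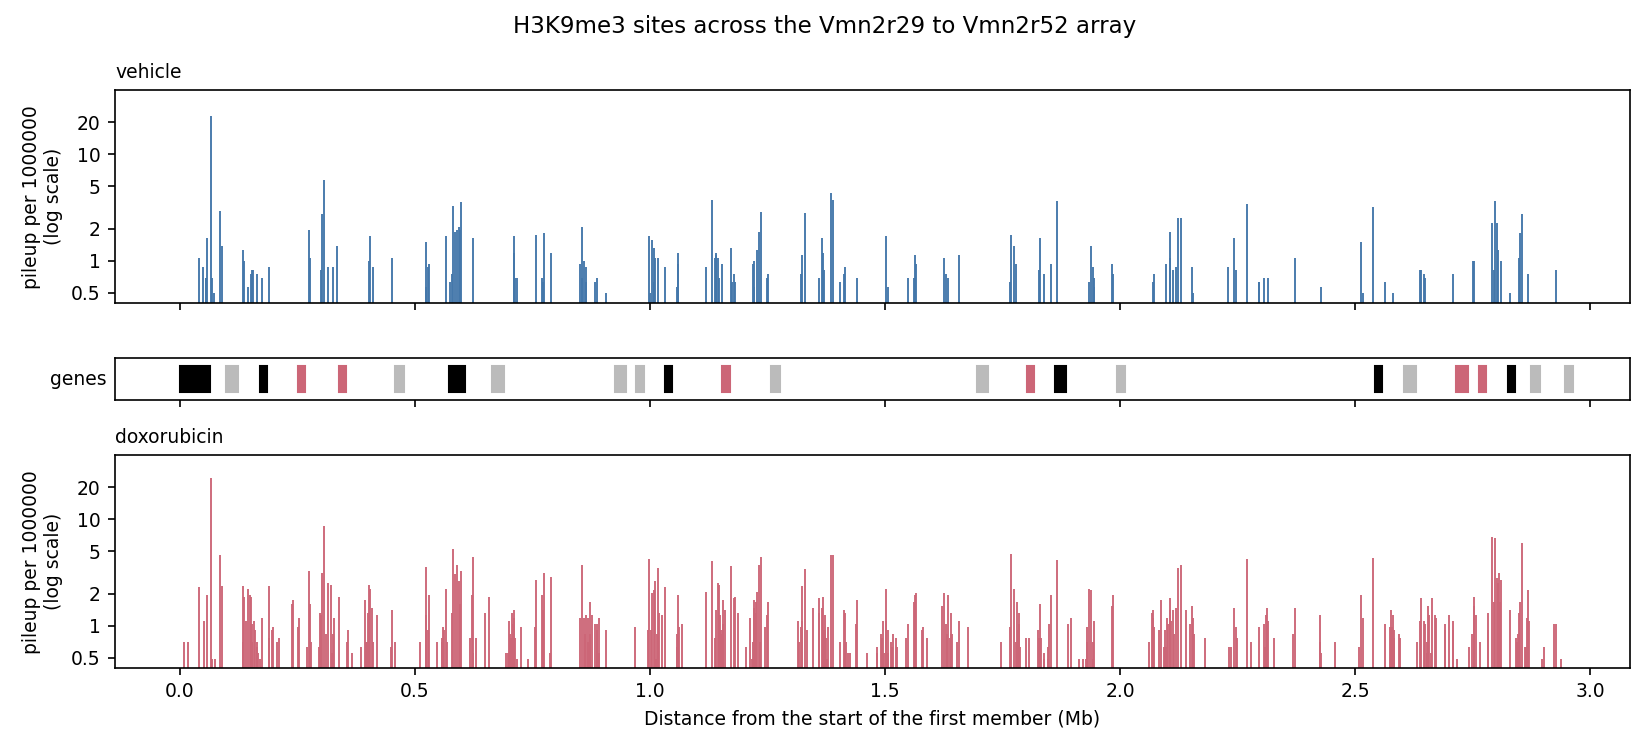
H3K9me3 sites along the Vmn2r29 to Vmn2r52 array, as distance from the start of the first member in Mb (horizontal axis), with the pileup in FPM on a log scale (vertical axes) in vehicle (top) and doxorubicin (bottom). Boxes between them are the 24 members, black with the mark in both lists, red in doxorubicin only and grey in neither. The doxorubicin panel holds more lines, most of them below 2 FPM, along the whole array.

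The copies of this array are also the most alike. Over the 116 members with a start sequence, the best match to another member had a median identity of 92.3%, and 68 had a match of at least 90%. In the array the median was 99.0%, and 85.9% of the stretches of 50 bases of a start recurred in another member's start. The start of Vmn2r33 was 100% identical to that of Vmn2r31. Fragments from such copies can be placed at another copy or left out, so values of single members there are uncertain, and the part of this in the treatment difference was not tested. The array of Vmn2r111 to Vmn2r117 had a median identity of 98.3% but a lower median share of recurring 50-base stretches, 52.99%. It had 30 shared sites with a median log2 ratio of 0.27 over its span. It holds 7 members against 24, so the arrays differ in more than the ratio, and an effect of likeness on the ratio was not tested.

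Members that are alike at the start did not always share a state. Among 62 pairs with at least 95% identity, formed by 44 members, 26 pairs had the same state by treatment, 7 of them with the mark in neither list, and 36 pairs differed. Many of these pairs have a member in common, and the share over all pairs of members is not given here. The counts therefore cannot be called particular to alike members. The share of 50-base stretches that recur in another member had a median of 42.2% for members in doxorubicin only, 17.1% for those in both lists, 8.96% for vehicle only and 3.19% for neither. Since 6 of the 12 members in doxorubicin only belong to the array of alike copies, state and likeness cannot be told apart here.

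**Figure D5:**
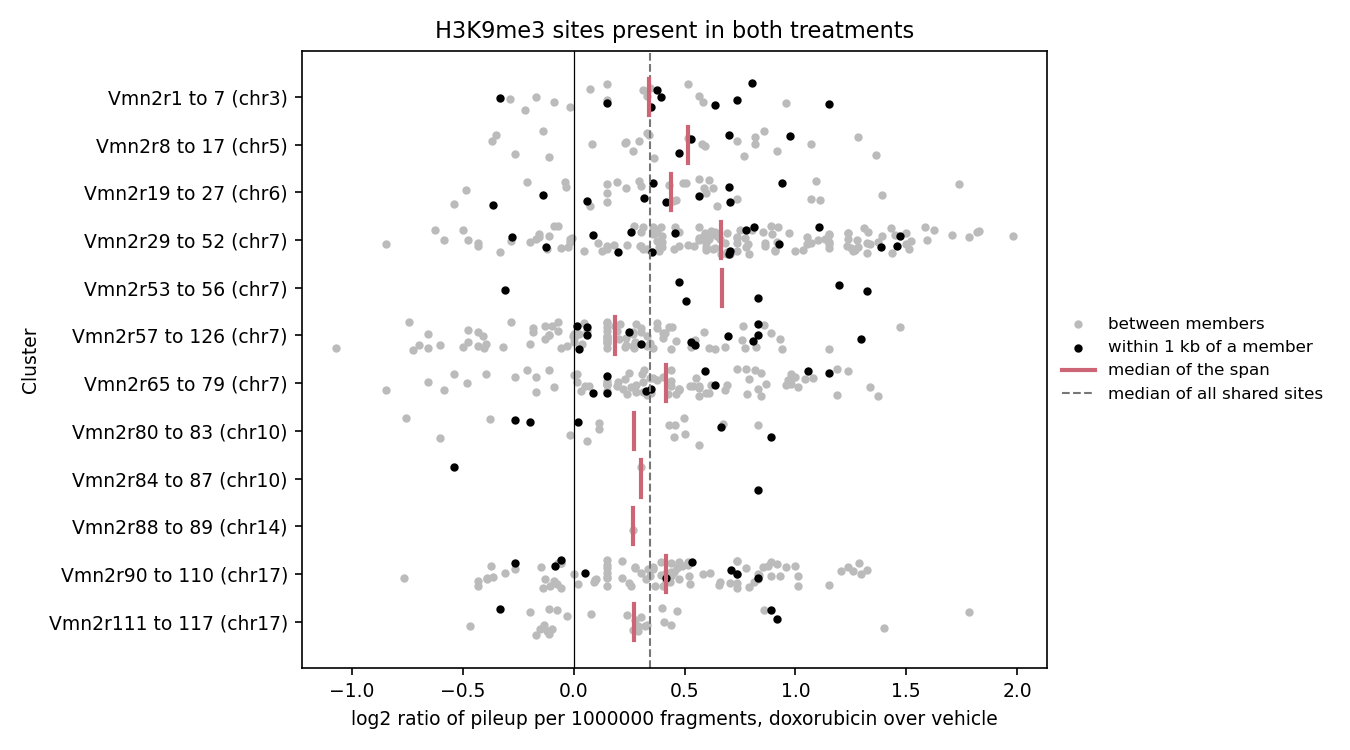
Log2 ratio of H3K9me3 pileup in FPM, doxorubicin over vehicle (horizontal axis), for every site in both lists within the span of each cluster (vertical axis). Black points lie within 1 kb of a member and grey points between members, the red bar is the median of the span and the dashed line the median of all shared sites, 0.34. The span of Vmn2r29 to Vmn2r52 has a median of 0.66 and that of Vmn2r57 to Vmn2r126 one of 0.19.

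Of the 12 members in doxorubicin only, Vmn2r44 had the highest pileup, with 5 regions covering 2.57 kb. That value, 3.61 FPM, belongs to the site chr7:8384221-8385838, which reaches the window of Vmn2r44 only by its edge. The vehicle list has a region of the same site just outside the window, with 1.31 FPM, so at this place the mark was in both lists and 2.75 times higher in doxorubicin. The other 4 sites of Vmn2r44 were in doxorubicin only, up to 1.74 FPM, and 3 of these 4 overlapped an input or untagged region.

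Vmn2r33 had 1 site, chr7:7551075-7551797, with 27 fragments or 1.87 FPM in doxorubicin (1.24 to 2.73). It lies inside the gene, overlaps no input or untagged region, and has no counterpart in the vehicle list. Vmn2r32 followed with 1.18 FPM over 0.854 kb, where the untagged list also has a region, then Vmn2r69 with 0.903 and Vmn2r102 with 0.833. The remaining 7 members lay between 0.486 and 0.764 FPM. Most of the doxorubicin-only calls were thus near the lowest pileups that the lists contain, 0.486 FPM at these genes.

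The 4 members in vehicle only were weaker still in extent. Vmn2r104 had 0.875 FPM over 0.136 kb, Vmn2r86 0.750 over 0.274 kb, Vmn2r112 0.625 over 0.255 kb and Vmn2r118 0.563 over 0.287 kb. Vmn2r104, like Vmn2r44, owes its place to the edge of the window, since the joined site there is in both lists. No other member with the mark in 1 treatment only had such a site.

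Counting covered length, 12 members had at least 1.5 times and 0.5 kb more in doxorubicin (9.84%, background 7.22% of all genes and 8.43% in the length range). In the other direction 1 member, Vmn2r85, passed (0.820%, background 1.56% and 1.99%). Beside Vmn2r44, the largest gains were those of Vmn2r114, from 0.790 to 2.07 kb, Vmn2r13, from 1.81 to 2.85 kb, and Vmn2r97 and Vmn2r91, already given. Vmn2r126 went from 1.31 to 2.32 kb, Vmn2r62 from 1.94 to 2.93 kb and Vmn2r25 from 1.18 to 2.09 kb. Vmn2r32 and Vmn2r90 went from 0 to 0.854 and 0.800 kb. The largest losses beside those of Vmn2r35, Vmn2r22 and Vmn2r38 were Vmn2r85, from 0.803 to 0.276 kb, and Vmn2r24, from 0.753 to 0.290 kb. At Vmn2r24 part of this lies at the window's edge, since both of its sites were in both lists, with pileups of 0.563 and 2.06 FPM in vehicle and 0.833 and 2.57 in doxorubicin. Of the 49 members marked in both lists, 32 had more covered length in doxorubicin, 16 less and 1 the same. Their top pileup was higher in doxorubicin at 39 and lower at 10. The same shares over all genes are not given here. Over the whole lists the ratio of covered length was 1.18, and 37243 of 47376 shared sites had a higher pileup in doxorubicin.

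Among the sites of these genes more lay in the last part than in the first. For the 116 members with a known strand, 75 of 156 pairs of site and gene had the site in the last of 3 equal parts of the gene (48.1%), 44 in the middle part (28.2%) and 24 in the first (15.4%). Over protein-coding genes of the same length range the shares were 31.3%, 33.4% and 27.4% of 9162 pairs. Within 1 kb of the start lay 4 of the 156 (2.56%), as did 2.56% of the pairs in the length range, and upstream of the gene lay 7 (4.49%, against 2.85%). The 300 bases around the start were touched in vehicle at 3 members, Vmn2r129, Vmn2r22 and Vmn2r29 (2.59%, background 1.23%), and in doxorubicin at 1, Vmn2r29 (0.862%, background 1.71%). The input list (background 0.194%) and the untagged list (background 0.738%) also touched the start of Vmn2r29 and of no other member, and the p53 list touched 0 (background 0.543%).

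Of the 11 members named for a known ligand or role, 6 had H3K9me3 in both lists and 5 in neither. Over all 122 members the shares were 40.2% and 46.7%, and over all protein-coding genes 23.3% and 68.9%. With 11 genes these counts do not set the named members apart from the family. Vmn2r26, also called V2r1b, which responds to peptide ligands of major histocompatibility proteins, had 0.585 kb at 0.938 FPM in vehicle and 1.19 kb at 1.53 FPM in doxorubicin. Vmn2r116, the receptor of the male peptide ESP1, Vmn2r115, a receptor of ESP22, and Vmn2r88, which detects haemoglobin, had no region in any of the 7 lists. Vmn2r1 to Vmn2r7 form a separate family that is expressed in many basal neurons together with another receptor. Among them Vmn2r1 had the most, as given above, and Vmn2r2 had 2.21 kb in vehicle and 1.90 kb in doxorubicin. Vmn2r3 and Vmn2r5 had no H3K9me3, and Vmn2r4, Vmn2r6 and Vmn2r7 had 1 region each in both treatments, of 0.531 to 1.24 kb. Vmn2r2 lies within Vmn2r1, and its 2 sites are also counted at Vmn2r1.

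H3K27ac was found at few members. At Vmn2r29 it lay on the gene start, and at Vmn2r2 the doxorubicin region, chr3:64170989-64171637, lay within the 1000 bp upstream of the gene and inside Vmn2r1. At the other members it was at least 9.07 kb from the start. It was in both treatments at 9 members (background 62.3% of all genes and 72.4% in the length range), in doxorubicin only at 3, Vmn2r2, Vmn2r18 and Vmn2r111 (2.46%, background 8.27% and 8.58%), and in vehicle only at 2, Vmn2r82 and Vmn2r90 (1.64%, background 2.53% and 2.45%). The regions numbered 13 in vehicle and 12 in doxorubicin and covered 0.280% and 0.264% of the windows, beside 5.14% and 6.82% over all protein-coding genes. Of the vehicle regions 8 of 13 overlapped H3K9me3 in the vehicle list, and of the doxorubicin regions 8 of 12 did so in the doxorubicin list. These are lists from populations of cells, so an overlap does not show both marks on 1 chromosome. The share of all H3K27ac regions that overlap H3K9me3 is not given here, so these counts cannot be called particular to the family. At the 300 bases around the start, Vmn2r29 alone had H3K27ac (0.862% in both treatments), where 40.2% of all gene starts had it in vehicle and 41.0% in doxorubicin.

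The strongest H3K27ac of the family was within Vmn2r27, 3.83 FPM in vehicle (3.03 to 4.77) and 3.40 in doxorubicin (2.59 to 4.40). Vmn2r3 had 1.84 and 1.06, Vmn2r85 1.74 and 1.17 and Vmn2r57 1.70 and 1.23 FPM, each lower in doxorubicin with overlapping intervals. Vmn2r58 had 1.07 and 2.17 FPM. At Vmn2r24 the vehicle value was 18 fragments or 0.872 FPM (0.517 to 1.38) and the doxorubicin value 52 fragments or 3.05 FPM (2.28 to 4.00), and these intervals do not overlap. At Vmn2r111 a region of 1.06 FPM was in the doxorubicin list only.

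Both of these genes also had a p53 region at the same place. The 5 p53 regions of the family lay within Vmn2r63, with a fold enrichment of 34.5 as the authors' caller gave it, Vmn2r126 with 23.0, Vmn2r62 with 21.6, Vmn2r111 with 18.3 and Vmn2r24 with 9.94. None overlapped an input or untagged region. The region of Vmn2r24, chr6:123793683-123794018, lies inside the H3K27ac region of both treatments, and that of Vmn2r111, chr17:22551257-22552070, holds the doxorubicin H3K27ac region. The HA ChIP has no stated treatment, so the p53 regions cannot be assigned to vehicle or doxorubicin.

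Vmn2r62, Vmn2r63 and Vmn2r126 are neighbours in the array of Vmn2r57 to Vmn2r126, and their p53 regions lay 20.5, 22.0 and 20.8 kb from the gene start. In Vmn2r111, on chromosome 17, the distance was 21.6 kb, and in Vmn2r24 it was 14.9 kb. The starts of Vmn2r62 and Vmn2r126 were 100% identical, and 25.1% of the 50-base stretches of the Vmn2r63 start recurred in another member's start. Fragments from alike copies can be placed at another copy here too. Likeness at the p53 regions themselves was not computed. Whether the regions of Vmn2r62, Vmn2r63 and Vmn2r126 are independent of each other was therefore not tested. H3K9me3 overlapped 2 of the 5 p53 regions in vehicle, those of Vmn2r62 and Vmn2r111, and 4 in doxorubicin, with Vmn2r63 and Vmn2r126 added. The H3K9me3 pileups there were low. At Vmn2r62 they were 0.875 FPM in vehicle and 1.04 in doxorubicin, and at Vmn2r111 0.750 and 1.39, while Vmn2r63 had 0.625 and Vmn2r126 0.972 in doxorubicin only. These summits rest on 9 to 20 fragments. The share of all p53 regions that overlap H3K9me3 is not given here, so these overlaps cannot be called particular to the family.

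The other genes of the vomeronasal system were taken from lists of their roles. Of 11 genes of signal transduction, 5 had H3K9me3 in vehicle and 5 in doxorubicin, 9 and 10 had H3K27ac, and 5 had a p53 region. Over all protein-coding genes the shares were 25.4% and 29.1% for H3K9me3, 64.8% and 70.5% for H3K27ac and 17.2% for p53. Among them Gnao1 had 2 H3K9me3 regions after vehicle and 3 after doxorubicin, with 5 and 17 H3K27ac regions, and the channel Trpc2 had 0 H3K9me3 regions and 3 and 2 of H3K27ac. All 8 transcription regulators, such as Bcl11b and Tfap2e, had H3K27ac in both treatments, and 2 had H3K9me3. The 10 genes of surface partners, the H2-M proteins and B2m, had no H3K9me3, and B2m alone had H3K27ac.

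Other receptors and the ligands were counted in the same way, and the shares of all protein-coding genes given above, 25.4% and 29.1% for H3K9me3, serve as background. The 228 Vmn1r genes, the receptors of the apical layer, are short, with a median of 0.924 kb against 24.6 kb for the Vmn2r members, and 11 had H3K9me3 in vehicle and 14 in doxorubicin, and 3 had H3K27ac. The 4 Fpr-rs receptor genes had no H3K9me3 or H3K27ac. Of the 15 Esp genes 2 had H3K9me3 in vehicle and 1 in doxorubicin, and of the 22 Mup genes 4 and 8, with 9.20 and 14.7 kb covered. H3K27ac was at 0 Esp genes, and at 1 Mup gene in vehicle and 0 in doxorubicin.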

How the data were processed

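The members, the gene lists and the comparisons were chosen with earlier results of these data known. Reads were aligned with Bowtie2 2.2.6 and peaks called with MACS2 2.2.5, per the submitters' processing notes, on mm10 with an added contig and with both libraries of a group pooled, in paired-end mode, keeping 1 fragment per position with the q cutoff set to 0.05, as the file headers record. The histone and input lists were called without a control, and the untagged and p53 lists against the input, per the file headers. The pileup signal in the deposited lists counts the fragments over a summit, with the HA lists brought to input depth. The q values, as deposited by the authors, are on a −log10 scale, and the deposited fold enrichment is the ratio of pileup to background. Region lengths are in bp as deposited by the authors.

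Summits of an interval were joined into 1 region with the values of the highest summit, and pileups were divided by the fragments after duplicate removal, as FPM (fragments per 1000000 fragments). A region counted at a gene when it overlapped the gene or 1000 bp around it by at least 1 bp. Gene positions are those of RefSeq for GRCm38.p6, and gene starts with strand from its promoter sequences. Regions of both H3K9me3 lists were joined into sites where they overlap. Named members were the 10 with most covered length in vehicle, the 10 with the largest gains and 5 with the largest losses, the 5 of highest pileup in 1 treatment only, those with a region in another list, and those of known role. Vmn2r43, Vmn2r31, Vmn2r129 and the members listed only by call were named after their values were seen. Sequence identity was computed by alignment of the 300 bases at the start with Biopython 1.88. The scripts ran under Python 3.11.15 with pandas 2.3.3, numpy 2.4.6, scipy 1.17.1 and, for plots, matplotlib 3.10.9. Overlap counts and covered lengths were tested against bedtools 2.31.1 on 60000 simulated regions in 3000 windows, with 0 differing. No test across replicates was run, since each list pools its replicates. Introns and exons were not told apart, since no such annotation was used here.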

Additional observations from a re-analysis of the deposited data

How the results depend on the processing

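No paired analysis was possible because a list holds both libraries of its group together. For the same reason no library could be left out. Alternatives without single members or clusters, centred ratios and those of the whole Vmn2r29 to Vmn2r52 span were chosen after seeing the data. A count or ratio was taken as moved when it differed by more than 1.5 times from the reported one, and the share of shared sites when it left the reported Wilson interval. The reported ratios of 1.30 for regions and 1.15 for covered length can lose their whole difference within this limit. A ratio that did not move therefore does not show that the treatment difference held. The span ratio did not use the limit of at least 200 bp inside the window, so it could not move there. Of 142 values, 125 did not move, 17 moved and 0 reversed. Vehicle-only members were 2 at a −log10 q of at least 5, at a fold of at least 4 and with 5000 bp around the gene. Members with an input region were 1 under both stricter limits and with 0 bp around the gene. A pileup of at least 1 FPM left 33 members with H3K9me3 and 5 with H3K27ac in vehicle, and 27.7% of shared sites at least 1.5 times higher in doxorubicin. Equal numbers of top regions gave 7 doxorubicin-only and 6 vehicle-only members, and 6 clusters with more covered length in doxorubicin. The ratios were then 1.04 for the number of regions and 1.03 for the covered length, which the rule did not count as moved. With 5000 bp around the gene doxorubicin-only members were 20 and members with H3K27ac in doxorubicin 20. With the pseudogenes added, 87 genes had H3K9me3 in vehicle, 109 in doxorubicin and 27 in doxorubicin only, and 28.0% of shared sites were at least 1.5 times higher. Centring on the median of all shared sites gave 13.5%, a drop that follows from that median being above zero. For the other moved values the cause was not tested. Depth limits the values of single members, since a summit of 1 FPM rests on 14 to 16 fragments in the H3K9me3 lists.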
